A study of Homo sapiens with 16 samples.

Results

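The genes described here are 10 genes of cytokine signalling through STAT5 in the established leukaemia line K562, of human origin: the receptors KIT and EPOR, the kinase fusion partner BCR, the transcription factors STAT5A and STAT5B, the feedback inhibitors CISH, SOCS1, SOCS2 and SOCS3, and the kinase PIM1. They were chosen by name as a pathway, and all 10 were among the 17559 genes tested, of 35052 genes in the deposited tables. Wild-type K562 cells received 25 nM phorbol 12-myristate 13-acetate (PMA), an activator of protein kinase C that turns these cells towards a megakaryocyte-like state. RNA was taken at 0 h, the untreated control, and in 7 treated groups, after 0.5 h or 1.5 h, 3 h or 6 h, and 24 h, 48 h or 72 h of PMA. There were 2 libraries of ribosome-depleted total RNA per time, 16 in all, with 27285773 to 54056289 estimated reads each. The culture medium was replaced after 24 h and again after 48 h, so a change of medium and the 2 latest times cannot be told apart. Nothing in the labels says that replicates came from separate cultures, so p-values measure the spread between libraries, which may be technical.

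Cytokine receptors such as the erythropoietin receptor EPOR bind a JAK kinase, which phosphorylates STAT5A and STAT5B. The paired STAT5 proteins enter the nucleus and bind a short palindrome in the promoters of target genes. Among these targets are CISH and the SOCS genes, whose proteins bind receptors or JAK kinases and dampen the same signal, and PIM1, a kinase that promotes survival. KIT, the receptor for stem cell factor, is a tyrosine kinase of early blood progenitors and mast cells. K562 cells carry the BCR-ABL1 fusion, a constantly active tyrosine kinase that phosphorylates STAT5 without a cytokine, which makes these target genes a usual readout of the fusion kinase.

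The CISH promoter is shown because CISH is the textbook STAT5 target and because it held 4 copies of the STAT palindrome TTCNNNGAA, which was searched on both strands. They form 2 close pairs on the minus strand of chromosome 3 (GRCh38.p14), written 5′ to 3′ with the palindromes in capitals. The far pair (chr3:50611996-50612015) is given alone, and the near pair (chr3:50611832-50611907) with the bases around it that lie outside annotated exons.
CISH far pair: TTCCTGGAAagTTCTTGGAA
CISH near pair: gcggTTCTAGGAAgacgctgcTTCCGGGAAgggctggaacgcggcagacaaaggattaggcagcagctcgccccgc
The first bases of the palindromes lie at -241, -230, -129 and -112 from the RefSeq start of CISH. All 4 palindromes lie upstream of CISH and within the gene MAPKAPK3, which is read from the opposite strand. The far pair overlaps an annotated MAPKAPK3 exon, and the near pair overlaps none.

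Promoter entries, each from 250 bases before to 50 after a gene's start, were found in RefSeq (GRCh38.p14) for 9 of the 10 genes, and SOCS2 had no entry. No other entry of these genes held TTCNNNGAA, which 7.66% of all 35116 promoter entries of that length held. The AP-1 motif TGANTCA, which 7.71% of entries held, was in none of them. The GATA motif GATAA, present in 22.7% of entries, was found only for EPOR, and the EGR motif GCGGGGGCG, present in 5.07%, only for STAT5B. The 65 bases around the EPOR match (GRCh38.p14, chr19:11384358-11384422, minus strand) are shown because EPOR is a classical erythroid GATA target, with the reverse complement of GATAA at -78 in capitals.
EPOR: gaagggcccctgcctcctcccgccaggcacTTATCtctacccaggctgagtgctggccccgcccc
A match of letters is a description of the sequence and no measure of binding, and these windows do not cover enhancers. The SOCS3 entries (chr17:78360876-78361175 and chr17:78359618-78359917, minus strand) lie on either side of its GENCODE 29 start, 78360077. The bases just upstream of that SOCS3 start were thus not searched, and a STAT palindrome there would have been missed. For STAT5B and BCR, too, the entries leave out the GENCODE 29 start of the gene.

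Levels of the 10 genes followed several courses under PMA. KIT stayed under 1 CPM for 6 h and then switched on. CISH and EPOR sank within 3 to 6 h, and their libraries overlapped the untreated ones again from 48 h. SOCS1 and SOCS3 rose and stayed high, while PIM1 and SOCS2 fell and stayed low, with STAT5A only partly restored. In the test for any difference over the 8 time points (edgeR quasi-likelihood, adjusted p under 0.05), 10 of 10 genes were called, where 82.9% of all genes tested were called.

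**Figure D1:**
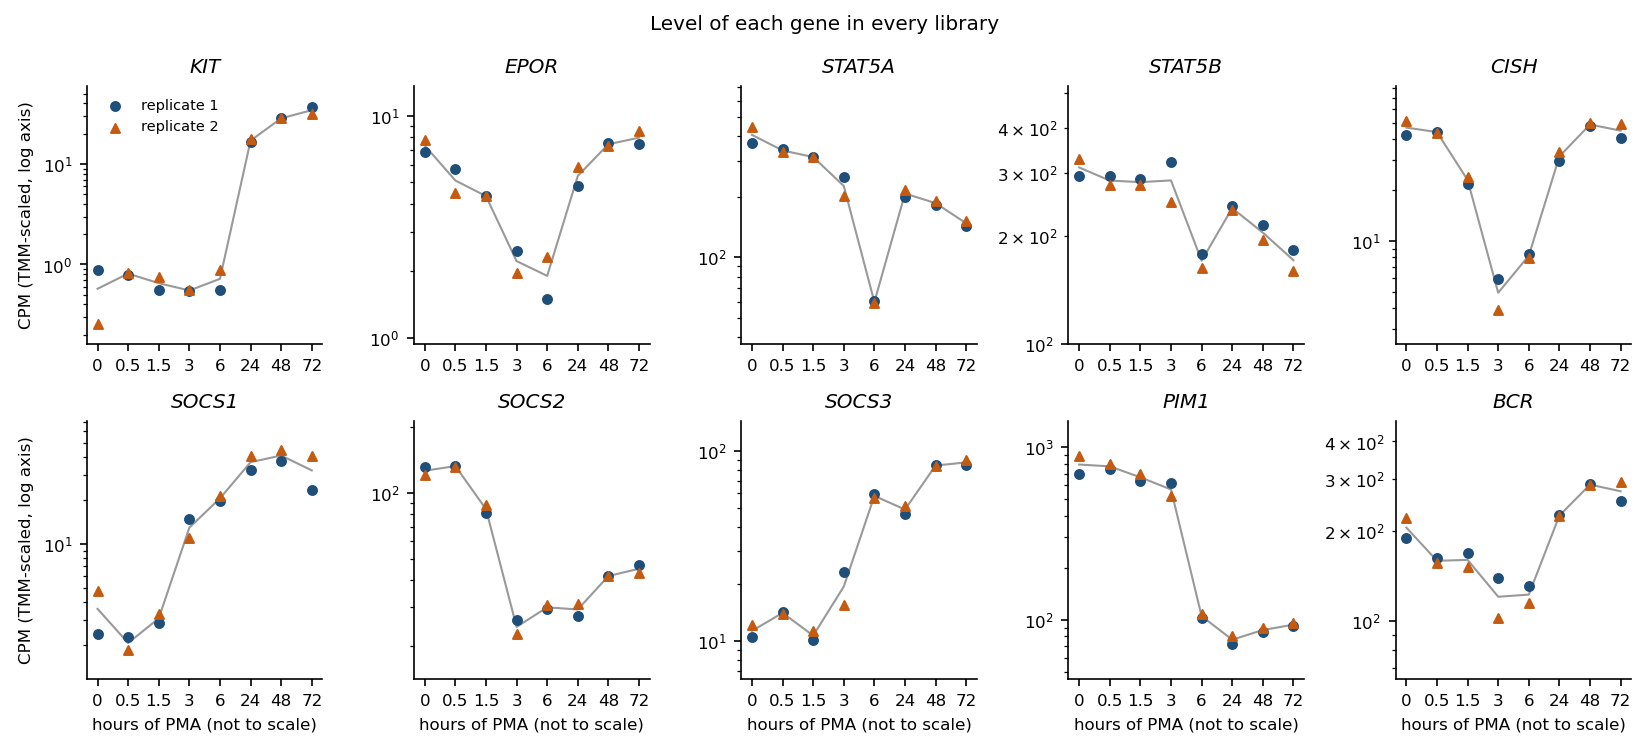
Level of each of the 10 genes in all 16 libraries, in CPM, read counts scaled to a fixed library size by TMM (log axis), by hours of PMA (categories, not to scale). Circles are replicate 1, triangles replicate 2 and the line joins the means. KIT stays under 1 CPM through 6 h and exceeds 16 CPM from 24 h.

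At 0.5 h against 0 h, edgeR called 0 of the 10 genes, and DESeq2 likewise called 0. An unadjusted p under 0.05 was reached by 4 of them (EPOR, STAT5A, SOCS1 and BCR). Over all genes, 0.165% were called higher and 0.0057% lower at that time. Without 0 h replicate 1, 4 genes were called at 0.5 h (KIT, STAT5A, SOCS1 and BCR). The 2 libraries at 0 h differ for KIT (29 estimated reads in replicate 1, 8 in replicate 2) and SOCS1 (78 and 147). For both genes replicate 2 was the one apart from the times that followed. It held KIT at 0.258 CPM, where the other libraries through 6 h held 0.548 to 0.89. Its SOCS1 level was 4.73 CPM, where the others through 1.5 h held 1.86 to 3.3. Without replicate 1, the 0 h level rests on replicate 2 alone.

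At 1.5 h, 4 of the 10 genes were called, each of them lower, with 8.05% of all genes called lower and 9.05% called higher. The calls at 1.5 h are the least settled of the series. They numbered 7 without 0 h replicate 1, and 2 (CISH and SOCS2) without 0 h replicate 2, without either 1.5 h library, or with each library's trend with GC content removed. Across genes, the correlation of a gene's GC content with its log2 fold change was -0.42 for 1.5 h and -0.76 for 0.5 h, and the part of GC content in these early values was not tested further.

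Falls outnumbered rises at 3 and 6 h. At 3 h, 6 fell and 2 rose, where 20.5% of all genes were called lower and 21.5% higher. At 6 h, 7 fell and 2 rose, against backgrounds of 29.4% lower and 27.8% higher. The median log2 fold change of the 10 genes was -0.62 at 3 h and -1.40 at 6 h, while the median of all genes tested was 0.00 at both. When libraries were scaled to their totals in place of TMM, the median of all genes itself shifted to -0.28 at 3 h and -0.35 at 6 h.

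Later counts were closer to even. At 24 h, 5 of the 10 were lower and 3 higher than at 0 h, where 26.6% of all genes were called lower and 31.7% higher. At 48 h the counts were 4 lower and 4 higher (background 24.1% and 30.2%). At 72 h they were again 4 lower and 4 higher (background 26.9% and 31.7%), and the median log2 fold change of the 10 was 0.03. From 6 h to 24 h, 7 of the 10 rose and 1 fell, with 30.8% of all genes called higher and 25.8% called lower. From 24 h to 72 h, 4 rose and 2 fell, with 13.9% of all genes called higher and 12.4% called lower.

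**Figure D2:**
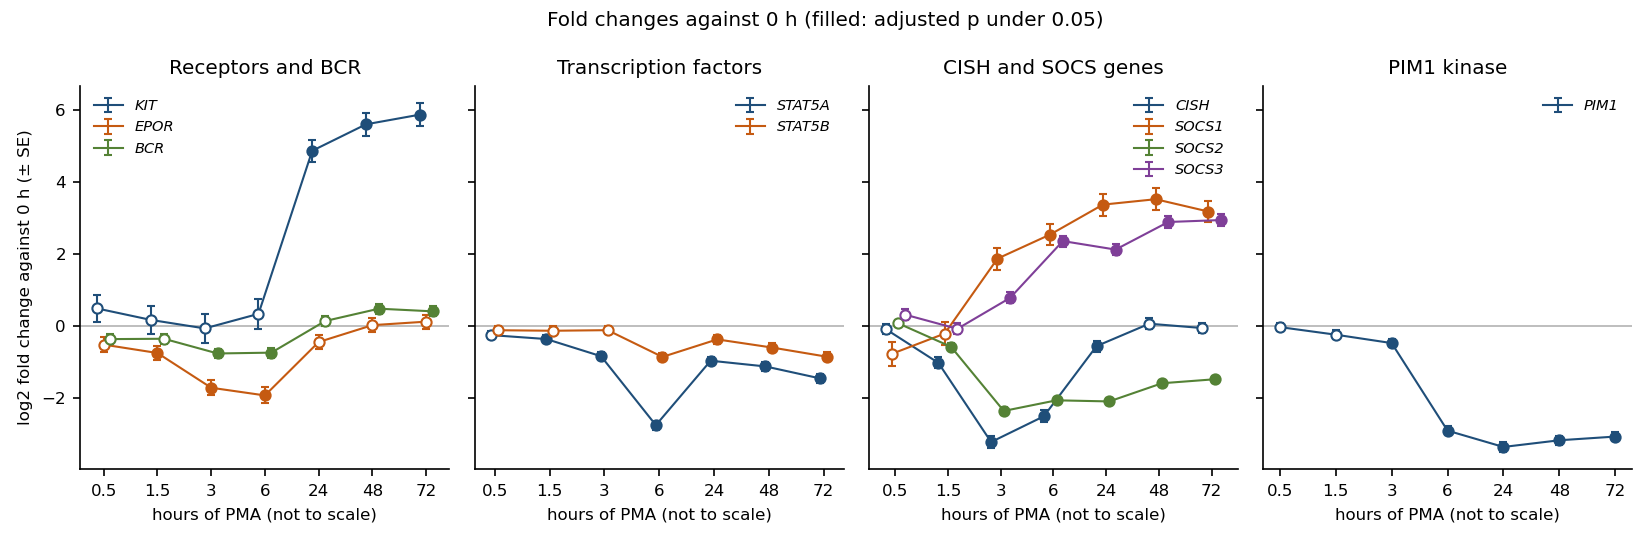
Log2 fold change of each gene against 0 h at 7 times of PMA (categories, not to scale), with bars of 1 SE from edgeR. Filled points have an adjusted p under 0.05 and open points do not. KIT reaches 5.88 at 72 h, SOCS1 and SOCS3 end near 3, and CISH and EPOR end near 0.

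KIT encodes the stem cell factor receptor and lies on chromosome 4 (GRCh38, 54657918 to 54740715, plus strand). Its level in the 2 replicates was 0.89 and 0.258 CPM at 0 h, 0.792 and 0.831 at 0.5 h, 0.56 and 0.743 at 1.5 h, 0.548 and 0.554 at 3 h, 0.555 and 0.885 at 6 h, 16.4 and 17.7 at 24 h, 28.5 and 28.4 at 48 h, then 37.3 and 31.3 at 72 h. The libraries of the first 5 times, with 8 to 30 reads each, all lay within the range of the 2 at 0 h, and every library from 24 h onward lay above all of them. KIT rose 29.3-fold from 0 to 24 h (4.87 ± 0.31 on the log2 scale, the error being the SE, edgeR adjusted p = 1.33e-08) and 58.8-fold from 0 to 72 h (5.88 ± 0.31, adjusted p = 1.84e-09). The rise continued from 24 to 72 h, by 1.00 on the log2 scale (edgeR adjusted p = 0.00518).

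The size of the KIT fold rests on few starting reads. Without 0 h replicate 1, the log2 fold change was 6.04 at 24 h and 7.04 at 72 h, and without 0 h replicate 2 these values were 4.26 and 5.26. Against the 6 h libraries, which held 13 and 25 KIT reads, the level at 24 h was 23.3-fold higher (edgeR adjusted p = 5.33e-08). A filter of at least 10 reads in every library removes KIT, since 0 h replicate 2 held 8. In the later libraries, 2 protein-coding transcripts took nearly all KIT reads: KIT-201 held 77.4%, 75.1% and 75.9% on average at 24, 48 and 72 h, and the shorter KIT-202 held 21.7%, 24.0% and 23.2%. At the earlier times the split between them moved from 0 to 89.5% in single libraries and could not be resolved with so few reads.

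EPOR, the erythropoietin receptor gene on chromosome 19 (11377205 to 11384342, minus strand), drew a shallow valley. It measured 6.87 and 7.79 CPM at 0 h, 5.73 and 4.47 at 0.5 h, 4.34 and 4.34 at 1.5 h, 2.47 and 1.96 at 3 h, 1.49 and 2.3 at 6 h, 4.81 and 5.89 at 24 h, 7.56 and 7.31 at 48 h, then 7.41 and 8.5 at 72 h. The 3 h and 6 h libraries overlapped each other and lay below all others, and the 48 h and 72 h libraries overlapped those at 0 h. EPOR was 3.30-fold lower at 3 h (edgeR adjusted p = 2.04e-05) and 3.83-fold lower at 6 h (log2 fold change -1.94 ± 0.22, adjusted p = 4.14e-06), and the 6 h value was -1.33 with the GC trend removed. It then rose 2.80-fold from 6 to 24 h (edgeR adjusted p = 6.96e-05). At 72 h the log2 fold change against 0 h was 0.12 ± 0.20 (edgeR adjusted p = 0.631).

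The early fall of EPOR, by 0.76 on the log2 scale at 1.5 h (edgeR adjusted p = 0.0226), was not called without 0 h replicate 2 (-0.67, adjusted p = 0.154), without either 1.5 h library (-0.76 and -0.75, adjusted p = 0.110 and 0.124), or with the GC trend removed (-0.43, adjusted p = 0.149). Against 0 h the value at 24 h was -0.45 (edgeR adjusted p = 0.0685), and it was called with libraries scaled to total counts (-0.70, adjusted p = 0.00705). The step from 24 to 72 h, 0.57, missed the threshold (edgeR adjusted p = 0.0510). It passed with DESeq2 (0.59, adjusted p = 0.0491), and in edgeR with size factors from DESeq2 (adjusted p = 0.0438) or the replicate block (adjusted p = 0.0487). Scaling to total counts (edgeR adjusted p = 0.0222), no low-count filter (0.0428), at least 10 reads in every library (0.0275) and removal of the GC trend (0.0264) also passed it. So did leaving out either 3 h or either 6 h library. With counts derived from TPM or a fit of those 2 time points alone it was not called. The neighbouring gene RGL3 overlaps EPOR on the same strand but had at most 45 reads in a library.

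KIT and EPOR changed places as the more abundant receptor transcript. Per transcript length, in TPM, a transcript's abundance relative to all others, EPOR made up 93.4% and 98.7% of the pair at 0 h and 86.9% and 86.65% at 6 h, but 35.2% and 41.5% at 24 h and 28.9% and 34.2% at 72 h. Their summed level was 6.2 and 5.4 TPM at 0 h, 1.0 and 1.5 at 6 h, then 19 and 18.4 at 72 h. In these bulk libraries, more RNA per cell and more cells that express a gene cannot be told apart.

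STAT5A and STAT5B are neighbours on chromosome 17, encode closely related proteins that pair with each other, and followed different courses. STAT5A (42287547 to 42311943, plus strand) measured 368 and 444 CPM at 0 h, 344 and 335 at 0.5 h, 314 and 316 at 1.5 h, 252 and 200.2 at 3 h, 60.6 and 58.9 at 6 h, 199.6 and 215 at 24 h, 181 and 189.7 at 48 h, then 144 and 151 at 72 h. Both 6 h libraries lay far below all others, and no later library reached the levels of 0 to 1.5 h. STAT5A was 6.79-fold lower at 6 h than at 0 h (log2 fold change -2.76 ± 0.12, edgeR adjusted p = 3.05e-10) and rebounded 3.47-fold from 6 to 24 h (adjusted p = 3.94e-08). From 24 to 72 h it fell again, by 0.49 on the log2 scale (edgeR adjusted p = 0.00577), a call lost without 24 h replicate 2 (-0.39, adjusted p = 0.0815), and at 72 h it stood 2.76-fold below 0 h (adjusted p = 1.04e-07).

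The first called fall of STAT5A, at 1.5 h, was small, -0.37 ± 0.11 on the log2 scale (edgeR adjusted p = 0.0406). It was not called without 0 h replicate 2 (-0.23, adjusted p = 0.345), without the first or second 1.5 h library (adjusted p = 0.157 and 0.173), with the GC trend removed (-0.10, adjusted p = 0.556), with size factors from DESeq2 (adjusted p = 0.0630) or in a fit of those 2 time points alone (adjusted p = 0.144). Leaving out any 1 library at 0.5, 6, 24 or 48 h also carried it over the threshold, with adjusted p from edgeR of 0.0543 to 0.0739. At 3 h it was 1.80-fold lower (edgeR adjusted p = 4.17e-05).

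STAT5B (42199168 to 42276707, minus strand) measured 294 and 328 CPM at 0 h, 294 and 277 at 0.5 h, 289 and 277 at 1.5 h, 322 and 249.5 at 3 h, 178 and 163 at 6 h, 242 and 236 at 24 h, 215 and 194 at 48 h, then 183 and 159.8 at 72 h. Every library of the first 4 times lay above every later one, and those at 6 h and at 72 h overlapped at the lowest place. STAT5B was 1.82-fold lower at 6 h (log2 fold change -0.86 ± 0.12, edgeR adjusted p = 2.86e-05) and 1.81-fold lower at 72 h (adjusted p = 3.18e-05). With the GC trend removed the 6 h value was -0.48 (edgeR adjusted p = 0.00365).

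Between those low points STAT5B was 0.38 below 0 h at 24 h on the log2 scale (edgeR adjusted p = 0.0154), and 0.49 above 6 h (adjusted p = 0.00367). The 24 h call was lost without 0 h replicate 2 (-0.29, adjusted p = 0.0994), without either 24 h library (-0.39 and -0.39, adjusted p = 0.0544 and 0.0621), with the GC trend removed (-0.24, adjusted p = 0.103) and with counts derived from TPM (-0.26, adjusted p = 0.0538). The rise from 6 to 24 h was lost without 6 h replicate 2 (0.41, edgeR adjusted p = 0.0510), with the GC trend removed (0.24, adjusted p = 0.107) and with counts derived from TPM (0.23, adjusted p = 0.0903). From 24 to 72 h STAT5B fell by 0.48 (edgeR adjusted p = 0.00935), which was not called without 24 h replicate 1, 24 h replicate 2 or 72 h replicate 2 (-0.47, -0.45 and -0.39, adjusted p = 0.0509, 0.0729 and 0.0745).

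At 6 h the balance between the 2 STAT5 genes was inverted. STAT5A held 62.1% and 66.0% of their summed TPM at 0 h, 53.2% and 50.2% at 3 h, 30.3% and 28.6% at 6 h, then 52.1% and 51.2% at 24 h. It stayed between 51.5% and 54.2% at 48 and 72 h, below both 0 h libraries. The sum itself went from 354.6 and 369 TPM at 0 h to 113.9 and 96.5 at 6 h and 165 and 168 at 72 h. Reads can be split wrongly between the 2 genes: 19.1% of the 31-base words in the main STAT5A transcript, STAT5A-209, and 13.8% of those in STAT5B-201 also occur in transcripts of other genes. For STAT5A-209 the only such gene was STAT5B. For STAT5B-201 there were 111 such genes, and STAT5A shared 13.5% of its words.

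**Figure D3:**
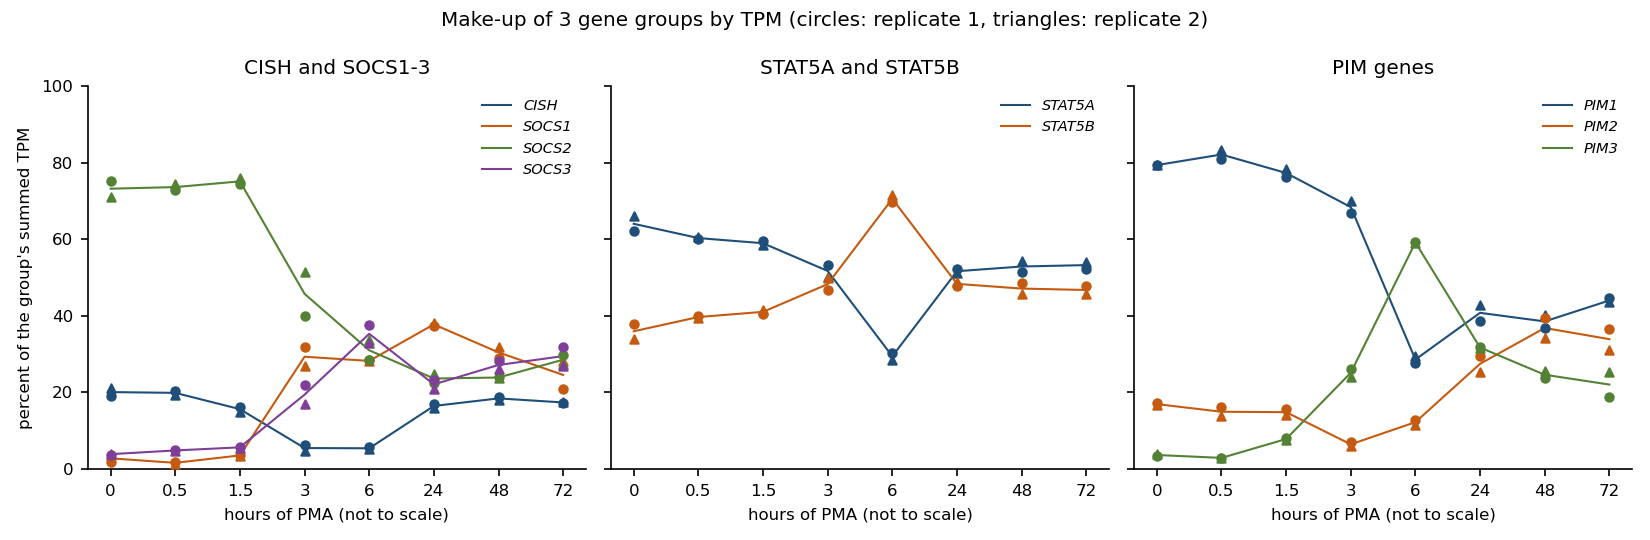
Share of each gene in the summed TPM of 3 groups, in percent, for each library by hours of PMA (categories, not to scale), where circles are replicate 1, triangles replicate 2 and lines join the means. SOCS2 loses its large share between 1.5 and 6 h, STAT5A drops to about 30% at 6 h, and PIM3 exceeds PIM1 at 6 h.

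CISH and the 3 SOCS genes encode proteins with an SH2 domain and a SOCS box, and they split into a falling pair and a rising pair. CISH (chromosome 3, 50606490 to 50611831, minus strand), whose product binds the activated erythropoietin receptor, measured 42.0 and 51.4 CPM at 0 h, 44.3 and 43.6 at 0.5 h, 21.8 and 23.9 at 1.5 h, 5.95 and 3.91 at 3 h, 8.41 and 7.93 at 6 h, 29.5 and 33.7 at 24 h, 47.5 and 49.9 at 48 h, then 40.6 and 49.0 at 72 h. The 3 h and 6 h libraries did not overlap with any other time, and those at 48 and 72 h overlapped the 0 h libraries. CISH was 9.40-fold lower at 3 h (log2 fold change -3.23 ± 0.17, edgeR adjusted p = 6.93e-09), the largest fall among the 10 genes at that time. It was already lower at 1.5 h, with a log2 fold change of -1.03 (edgeR adjusted p = 0.000716), and rose 3.87-fold from 6 to 24 h (adjusted p = 4.67e-07). At 6 h the log2 fold change was -2.52, or -1.92 with the GC trend removed (edgeR adjusted p = 2.08e-08 and 6.07e-09). At 72 h its log2 fold change against 0 h was -0.06 ± 0.15 (edgeR adjusted p = 0.753).

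The last part of the CISH recovery was less certain. At 24 h it stood 0.56 below 0 h (edgeR adjusted p = 0.00632), a call lost without 0 h replicate 2 (-0.41, adjusted p = 0.0660) or 24 h replicate 1 (-0.47, adjusted p = 0.0602). The rise from 24 to 72 h, 0.50 (edgeR adjusted p = 0.0269), was lost without 24 h replicate 1 (0.41, adjusted p = 0.166) or 72 h replicate 2 (0.36, adjusted p = 0.178), and with counts derived from TPM (0.49, adjusted p = 0.0596).

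The CISH transcript that retains an intron, CISH-203, took a changing share of the CISH reads. It held 13.8% and 14.1% at 0 h, and less at first, 7.5% and 7.6% at 0.5 h and 10.3% and 10.9% at 1.5 h. The share was then 28.02% and 35.5% at 3 h, 37.1% and 28.96% at 6 h, and 22.2% to 29.5% in the 24, 48 and 72 h libraries. In reads, CISH-203 went from 188.8 and 225 at 0 h to 60.9 and 42.6 at 3 h, while the coding CISH-201 went from 1179 and 1236 to 151 and 77.4. Reads of the opposite-strand neighbour MAPKAPK3, 468 to 2602 per library, could enter CISH where the genes overlap if the counting ignored strand, which is not given in the sources used here.

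SOCS2 (chromosome 12, 93569814 to 93583487, plus strand) limits growth hormone signalling, and its fall came as early as that of CISH. It measured 131 and 121 CPM at 0 h, 133 and 132 at 0.5 h, 80.8 and 88.0 at 1.5 h, 26.3 and 22.6 at 3 h, 29.4 and 30.7 at 6 h, 27.5 and 31.2 at 24 h, 41.9 and 41.6 at 48 h, then 47.0 and 43.1 at 72 h. All libraries from 3 h onward lay below those of the first 3 times, with no return to the 0 h level. SOCS2 was 5.16-fold lower at 3 h (log2 fold change -2.37 ± 0.10, edgeR adjusted p = 6.86e-10), and 2.80-fold lower at 72 h (adjusted p = 1.78e-08). The partial recovery from 24 to 72 h was 0.62 on the log2 scale (edgeR adjusted p = 0.000485). Both SOCS2 and CISH kept their 1.5 h calls with the GC trend removed.

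SOCS1 (chromosome 16, 11254405 to 11256200, minus strand) inhibits JAK kinases directly and is best known as a brake on interferon signalling. It measured 2.39 and 4.73 CPM at 0 h, 2.27 and 1.86 at 0.5 h, 2.83 and 3.3 at 1.5 h, 14.97 and 10.99 at 3 h, 19.9 and 21.5 at 6 h, 32.7 and 40.9 at 24 h, 37.4 and 44.4 at 48 h, then 23.7 and 40.9 at 72 h. Every library from 3 h onward lay above every earlier library, and the 24, 48 and 72 h libraries overlapped. SOCS1 rose 3.66-fold by 3 h (edgeR adjusted p = 0.000213), 5.82-fold by 6 h (adjusted p = 6.60e-06) and 10.4-fold by 24 h (log2 fold change 3.37 ± 0.31, adjusted p = 5.08e-07). Without 0 h replicate 1 or 2 the 24 h value was 2.97 or 3.95, and with the GC trend removed the 6 h log2 fold change was 3.36 in place of 2.54. The step from 6 to 24 h, 0.83 (edgeR adjusted p = 0.0177), was not called without either 6 h library or without 24 h replicate 2 (0.76, 0.88 and 0.62, adjusted p = 0.0875, 0.0574 and 0.134). RMI2 overlaps SOCS1 on the opposite strand, with 262 to 1506 reads per library.

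SOCS3 (chromosome 17, 78356778 to 78360077, minus strand) restrains signalling of the interleukin-6 receptor family. It measured 10.5 and 12.1 CPM at 0 h, 14.2 and 14.0 at 0.5 h, 10.1 and 11.3 at 1.5 h, 23.2 and 15.6 at 3 h, 59.6 and 56.8 at 6 h, 46.9 and 51.7 at 24 h, 84.1 and 83.9 at 48 h, then 84.2 and 90.3 at 72 h. The 3 h libraries stood between the early and the late ones without overlap, and those at 48 and 72 h were the highest. SOCS3 rose 1.72-fold by 3 h (edgeR adjusted p = 0.000908), 5.14-fold by 6 h (log2 fold change 2.36 ± 0.15, adjusted p = 1.42e-08) and 7.70-fold by 72 h (2.95 ± 0.15, adjusted p = 1.59e-09). With the GC trend removed the 6 h value was 2.975. Between 6 and 24 h the change was -0.24 (edgeR adjusted p = 0.164), and it became a call with the GC trend removed (-0.70), without either 3 h library, or in a fit of those 2 time points alone (-0.24, adjusted p = 0.0211). From 24 to 72 h SOCS3 rose by 0.82 (edgeR adjusted p = 0.000796).

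Among the 4 inhibitors SOCS2 lost its lead, while SOCS1 and SOCS3 gained share. On the TPM scale SOCS2 made up 75.3% and 71.1% of their sum at 0 h, 28.4% and 33.7% at 6 h, then 29.7% and 27.4% at 72 h. SOCS1 and SOCS3 held 2.0% and 3.6%, and 3.8% and 4.0%, at 0 h. At 6 h SOCS1 held 28.4% and 28.1%, and SOCS3 held 37.6% and 33.0%. The summed level of the 4 genes fell from 169.7 and 167 TPM at 0 h to 49.5 and 45.5 at 3 h and was 158.6 and 202 at 72 h, so the 72 h libraries held totals on either side of the 0 h ones with a different make-up.

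PIM1 (chromosome 6, 37170203 to 37175426, plus strand) was the most abundant of the 10 transcripts on the TPM scale from 0 to 3 h. It measured 697 and 888 CPM at 0 h, 751 and 796 at 0.5 h, 639.6 and 697 at 1.5 h, 616 and 520.5 at 3 h, 103 and 107 at 6 h, 72.5 and 80.8 at 24 h, 84.9 and 89.4 at 48 h, then 91.7 and 95.6 at 72 h. Every library from 6 h onward lay far below every earlier one, and no library approached the starting level again. PIM1 was 7.55-fold lower at 6 h (log2 fold change -2.92 ± 0.13, edgeR adjusted p = 3.26e-10), 10.3-fold lower at 24 h (adjusted p = 8.55e-11) and 8.46-fold lower at 72 h (adjusted p = 1.58e-10). Most of the fall lay between 3 and 6 h, when the mean went from 568 to 105.0 CPM.

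The smaller PIM1 changes were less stable. At 3 h it was 0.48 lower on the log2 scale (edgeR adjusted p = 0.00524), a call lost without 0 h replicate 2 (-0.30, adjusted p = 0.0689), without 3 h replicate 2 (-0.36, adjusted p = 0.0600), with the GC trend removed (-0.14, adjusted p = 0.299) and in a fit of those 2 time points alone (-0.49, adjusted p = 0.0744). The further fall from 6 to 24 h, by 0.45 (edgeR adjusted p = 0.00626), was lost without 24 h replicate 1 (-0.37, adjusted p = 0.0610). Its 2 relatives moved differently: PIM3 rose at 6 h by 2.68 on the log2 scale (edgeR adjusted p = 2.44e-08) and PIM2 fell by 1.91 (adjusted p = 2.17e-08). On the TPM scale PIM1 made up 79.4% and 79.3% of the 3 PIM transcripts at 0 h and 27.8% and 29.4% at 6 h, when PIM3 held 59.4% and 58.9%.

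BCR (chromosome 22, 23179704 to 23318037, plus strand) supplies the promoter and first part of the BCR-ABL1 fusion, so its reads come from both the normal gene and the fusion, which the deposited transcript tables cannot tell apart. It measured 189.7 and 222 CPM at 0 h, 162 and 156.5 at 0.5 h, 169 and 152 at 1.5 h, 139 and 102.5 at 3 h, 131 and 115 at 6 h, 227 and 225 at 24 h, 288 and 286 at 48 h, then 252 and 293 at 72 h. The libraries at 3 and 6 h overlapped each other and lay below all others, and those at 24, 48 and 72 h lay above both 0 h libraries. BCR was 1.70-fold lower at 3 h (log2 fold change -0.77 ± 0.14, edgeR adjusted p = 0.000439) and 1.68-fold lower at 6 h (-0.75 ± 0.14, adjusted p = 0.000313). With the GC trend removed, the 3 h value was -0.37 (edgeR adjusted p = 0.00585) and the 6 h value -0.06 (adjusted p = 0.648), so the 6 h call rests on leaving GC content as it is.

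BCR rose 1.84-fold from 6 to 24 h (edgeR adjusted p = 0.0001015). Its value at 24 h against 0 h, 0.13 (edgeR adjusted p = 0.404), became a call with the GC trend removed (0.40, adjusted p = 0.00281). Its small excess over 0 h was 0.48 ± 0.13 on the log2 scale at 48 h (edgeR adjusted p = 0.00828) and 0.40 ± 0.13 at 72 h (adjusted p = 0.0196). The 48 h call was lost without 0 h replicate 1 (0.37, adjusted p = 0.0693), and the 72 h call without 0 h replicate 1 (0.30, adjusted p = 0.131) or 72 h replicate 2 (0.29, adjusted p = 0.128). Counts derived from TPM gave 0.26 and 0.21 for these times (edgeR adjusted p = 0.196 and 0.299), scaling to total counts gave 0.25 at 72 h (adjusted p = 0.105), and a fit of 0 and 72 h alone gave 0.37 (adjusted p = 0.121). ABL1, the kinase partner of the fusion, moved the same way, by -0.50 at 6 h (edgeR adjusted p = 0.00183) and 0.55 at 72 h (adjusted p = 0.0008245). Of the 31-base words in the main BCR transcript, 9.81% also occur in other genes, and the pseudogene FBXW4P1 overlaps BCR on the same strand, with 145 to 568 reads per library.

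The rest of the pathway was read from lists of related genes, whose choice was made with earlier results of these data known. Their counts stand beside a background of 27.8% of all genes called higher and 29.4% lower at 6 h, and of 31.7% higher and 26.9% lower at 72 h. Of 8 JAK and STAT genes tested, 2 rose (JAK1 and JAK2) and 2 fell (STAT2 and STAT6) at 6 h, with a median log2 fold change of -0.06, and both counts were near the background. At 72 h 5 of the 8 were called, all of them higher, with a median of 0.55. JAK2, the kinase bound to EPOR, rose by 1.08 at 6 h (edgeR adjusted p = 2.03e-05), and JAK1 by 2.01 at 72 h (adjusted p = 4.44e-10). STAT3, the most abundant of the list on the TPM scale, measured 228 and 251 CPM at 0 h and 239 and 229 at 72 h (log2 fold change -0.03, edgeR adjusted p = 0.795).

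Among the tested receptors of other cytokines, calls higher outnumbered calls lower. Of 16 listed receptor genes, 13 were tested, and 8 rose and 2 fell at 6 h (median log2 fold change 1.77), while 10 rose and 1 fell at 72 h (median 3.29), where 27.8% and 31.7% of all genes were called higher. IL4R, the interleukin-4 receptor, went from 3.59 and 3.70 CPM at 0 h to 129 and 135 at 6 h and 336 and 389 at 72 h, a rise by 6.63 on the log2 scale (edgeR adjusted p = 2.21e-13). CSF2RB, the shared subunit of the interleukin-3, interleukin-5 and GM-CSF receptors, also had a valley, with 5.74 and 6.69 CPM at 0 h, 1.20 and 0.956 at 6 h, then 29.2 and 27.02 at 72 h, above its start by 2.18 on the log2 scale (edgeR adjusted p = 1.83e-08). CSF1R measured 0.0307 and 0.0966 CPM at 0 h (1 and 3 reads) and 6.66 and 7.87 at 72 h, and CSF3R fell by 1.58 at 72 h (edgeR adjusted p = 0.000179). A receptor nearly absent at 0 h, such as CSF1R, passed the low-count filter through treated libraries alone, so it could only rise. The counts and medians of this list are partly set by that filter and do not show that receptors as a group rose.

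Among the other SOCS and PIM genes, 4 of 6 rose and 1 fell both at 6 h (median log2 fold change 0.94) and at 72 h (median 0.57), where 27.8% and 31.7% of all genes were called higher. SOCS6 rose by 0.92 at 72 h (edgeR adjusted p = 0.00127), and PIM2 was the one that fell. Of 20 adaptors, phosphatases and kinases, 9 rose and 9 fell at 6 h (median -0.06), and 9 rose and 5 fell at 72 h (median 0.04), the last count being close to the 26.9% of all genes called lower. The ubiquitin ligases CBL and CBLB, which mark activated receptors for destruction, were among those that rose, CBL by 2.55 at 6 h (edgeR adjusted p = 9.33e-11) and CBLB by 3.13 at 72 h (adjusted p = 2.105e-11). INPP5D, a lipid phosphatase, fell by 2.47 at 6 h (edgeR adjusted p = 2.19e-09), and the adaptor GAB2 fell by 1.74 at 72 h (adjusted p = 1.29e-08). PTPN11, the most abundant of that list on the TPM scale, measured 271 and 242 CPM at 0 h and 303 and 308 at 6 h, a log2 fold change of 0.25 (edgeR adjusted p = 0.0420).

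Other genes known as STAT5 targets showed no common direction. Of 11 tested, 4 rose and 4 fell at 6 h (median log2 fold change 0.28), and 4 rose and 2 fell at 72 h (median -0.06). The rises were near the shares of all genes called higher, 27.8% and 31.7%. The survival gene BCL2L1 had a valley like that of CISH, with 178 and 214 CPM at 0 h, 28.8 and 27.6 at 6 h (log2 fold change -2.80, edgeR adjusted p = 2.61e-10) and 245 and 249.4 at 72 h. MCL1, another survival gene, rose at 6 h by 3.55 (edgeR adjusted p = 1.695e-10). The cyclin genes parted: CCND1 rose by 4.82 at 72 h (edgeR adjusted p = 4.67e-13) and CCND2 fell by 3.48 (adjusted p = 3.155e-12). The median of all genes tested was 0.00 at 6 h and -0.03 at 72 h, and no test set these lists against other genes.

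**Figure D4:**
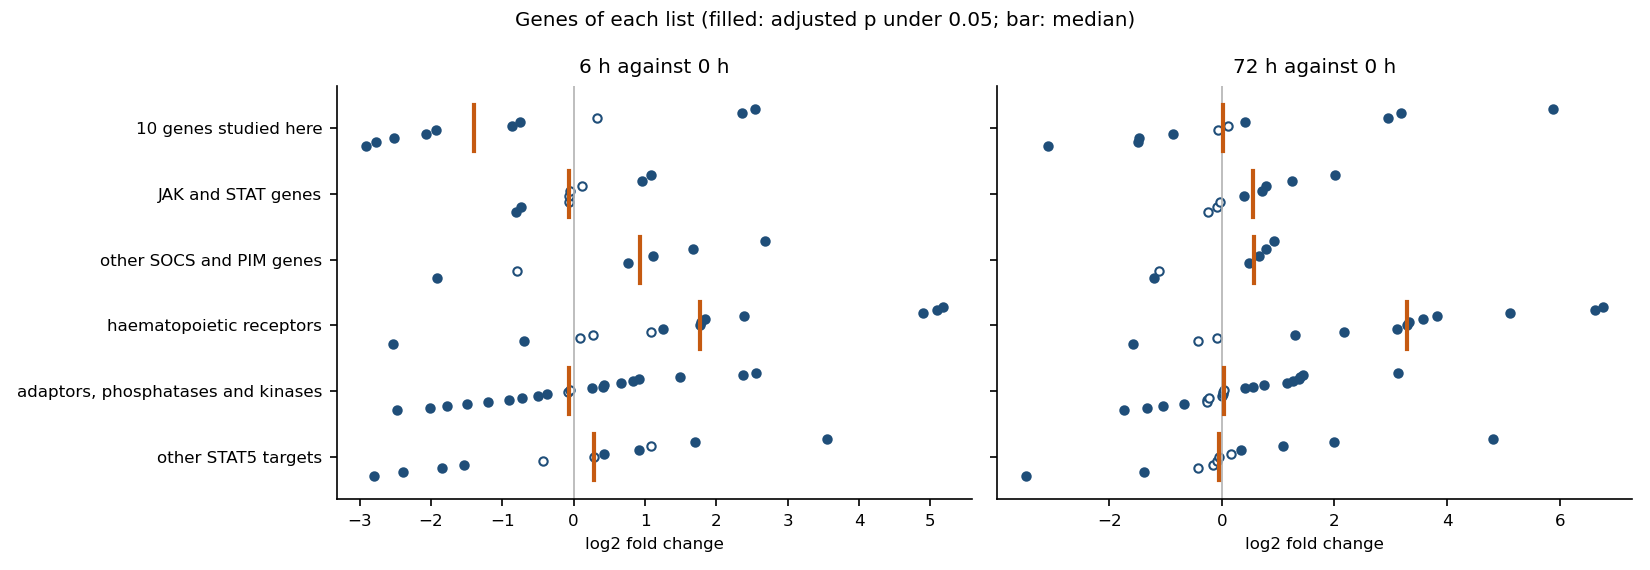
Log2 fold change of every tested gene of the 10 described here and of 5 lists of related genes, at 6 h and at 72 h against 0 h. Filled points have an edgeR adjusted p under 0.05, open points do not, and the bar is the median of the row. The 10 genes centre on -1.40 at 6 h and on 0.03 at 72 h, and the receptor list on 1.77 and 3.29.

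Across the members, per-length levels changed order. On the TPM scale PIM1 led with a mean of 545 TPM at 0 h, followed by STAT5A (232), BCR (157.5), STAT5B (130.0), SOCS2 (123) and CISH (33.8), with SOCS3 (6.56), EPOR (5.57), SOCS1 (4.72) and KIT (0.241) far below. At 72 h BCR led with 185 TPM, followed by STAT5A (88.7), STAT5B (77.9), PIM1 (71.2), SOCS3 (52.6), SOCS2 (51.3), SOCS1 (45.1), CISH (31.4), KIT (12.8) and EPOR (5.90).

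The genes whose mean levels ran most like each member over the 8 time points, of 11236 genes with at least 5 CPM on average, were found by Pearson correlation and serve as a description only. They were PCDHGC5 and RASAL2 for KIT (both r = 0.998), RPP25 and NRROS for EPOR (0.984 and 0.982), ABCA3 and PODXL2 for STAT5A (0.997 and 0.996), and CDK5RAP1 and COG5 for STAT5B (0.996 and 0.987). For CISH they were LIMK2 and PDF (0.988 and 0.986), for SOCS1 SEPTIN5 and TGFB1 (0.999 and 0.998), for SOCS2 SLC40A1 and ZNF766 (0.995 and 0.985), and for SOCS3 TMEM51 and RGS2 (0.992 and 0.990). PIM1 was matched by TNFRSF13C and GYPC (both 0.997), and BCR by GAS2L1 and PITX1 (both 0.991). None of the 10 genes was among the 2 closest matches of another, which, with 11236 genes searched, says little on how alike their courses were.

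Defining markers of the labelled line were present, while those of late megakaryocytes were mostly absent. The K562 genes HBG1, HBG2, HBE1, TFRC and GATA1 were expressed, and CDKN2A, which is deleted in K562, was at 0 reads in every library. GATA1, the erythroid and megakaryocytic factor, fell by 3.76 on the log2 scale at 6 h (edgeR adjusted p = 7.11e-10) and was back at 133 CPM on average at 72 h (131 at 0 h). Of 6 megakaryocyte genes, ITGB3 and THBS1 rose by 9.48 and 10.34 at 72 h, ITGA2B did not pass the test there (0.10, edgeR adjusted p = 0.432), and the defining late genes GP1BA, GP9 and PF4 had at most 5 reads. At 6 h, of the 3 tested, 2 were called higher and 1 lower, where 27.8% of all genes were called higher and 29.4% lower. Among markers of other cells, CD3E and ALB had at most 11 reads, PTPRC and EPCAM were detected throughout, and COL1A1 went from 3.47 to 207 CPM at 72 h. The part of these shifts in the receptor and STAT5 values was not tested.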

How the data were processed

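Per the file headers, the deposited tables give for each library an estimated count of reads per transcript, not normalized and not always whole, and TPM, relative abundance after division by effective length. The column names are those of Salmon, which the submitters' processing notes name beside Trim Galore 0.4.3, HISAT2 2.1.0, SAMtools 1.9, deepTools 3.0.1, R 3.3.1 and DESeq2, with hg19 and hg38 as builds. The version of Salmon, its strand setting and any bias correction are not given in the sources used here, so which build applies to these tables cannot be stated.

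Transcripts were matched to GENCODE 29 genes by identifier (167027 of 177456). Unmatched transcripts, with 3.01 to 3.75% of reads, were left out. Estimated counts were summed per gene and rounded. The main test was edgeR 4.0.16 in R 4.3.3: TMM, filterByExpr, 1 fit of all 16 libraries (8 residual degrees of freedom), the quasi-likelihood F-test, and Benjamini-Hochberg adjustment over 17559 genes within each contrast, called at 0.05. Fold changes use a prior count of 0.125 and CPM the TMM-scaled total. A floor of 3 reads was 0.0623 to 0.128 CPM and covers counting error only. The script was tested on simulated data. An exact permutation test of 2 against 2 libraries cannot pass 0.05, so the calls rest on edgeR's shared estimate of the spread.

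The 10 genes and the lists were chosen with earlier results of these data known, and the list genes named are each list's most abundant on the TPM scale and its largest called rise and fall at 6 and 72 h with at least 1 CPM on average, with ABL1, JAK2 and STAT3 always named. STAT6 completes a count. Some items of these lists are not reported here. Replicates correlated at 0.987 to 0.994 (Pearson r of log2 values across genes) and differed by more than sampling noise. Promoters and motifs were read from RefSeq entries with Python 3.11.15. Protein sequences were not used here. Alternatives were other size factors, scaling, filters, DESeq2 1.42.0, counts from TPM, a replicate block, removal of the GC trend, fits of 2 time points, and leaving out each library.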

Additional observations from a re-analysis of the deposited data

How the results depend on the processing

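Of the 90 log2 fold changes of the 10 genes in the 9 comparisons, 59 were called. None of these 59 changed sign in the 944 values with a library left out or the 585 under the other alternatives. Calls were lost in 35 and 22 of those values and are given beside the genes. Each call lost with the GC trend removed was also lost with the replicate block added to it. The number of genes called at 0.5 h was 1 (SOCS1) without a low-count filter and ranged from 0 to 4 with a library left out. At 1.5 h it was 2 with the GC trend removed, alone or with the replicate block, and ranged from 2 to 7 with a library left out. The other counts moved by less than 1.5 times under the alternatives and with single libraries left out, except from 24 to 72 h, where 9 genes were called with the replicate block and the GC trend removed and 4 without 24 h replicate 1, without 24 h replicate 2 or without 72 h replicate 2, against 6.

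Changes of sign were limited to values that had not been called. With the GC trend removed, and then with the replicate block as well, the 0.5 h values were 0.21 and 0.21 for CISH, 0.17 and 0.17 for PIM1, and 0.026 and 0.027 for BCR. In the same order the 1.5 h values were 0.28 and 0.29 for SOCS1, 0.25 and 0.25 for SOCS3, and 0.033 and 0.033 for BCR, those at 3 h were 0.073 and 0.069 for KIT and 0.17 and 0.16 for STAT5B, and CISH at 72 h was 0.071 and 0.071. Counts derived from TPM gave 0.0060 for CISH and 0.037 for PIM1 at 0.5 h, -0.14 for KIT at 1.5 h and -0.21 at 6 h, -0.056 for BCR at 24 h, -0.051 for EPOR and -0.0032 for CISH at 48 h, and 0.11 for SOCS2 from 6 to 24 h. Scaling to total counts gave -0.038 for KIT at 6 h, -0.11 for BCR at 24 h, -0.14 for EPOR and -0.10 for CISH at 48 h, -0.037 for EPOR at 72 h, and 0.087 for SOCS2 from 6 to 24 h. The cause was not tested.

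With a library left out, sign changes were seen for KIT at 0.5 h (-0.13 to 1.65), 1.5 h (-0.46 to 1.32), 3 h (-0.69 to 1.09) and 6 h (-0.29 to 1.49), for SOCS1 at 1.5 h (-0.63 to 0.35) and from 24 to 72 h (-0.64 to 0.15), and for CISH at 0.5 h (-0.22 to 0.067), 48 h (-0.076 to 0.21) and 72 h (-0.20 to 0.092). They were also seen for PIM1 at 0.5 h (-0.19 to 0.15), SOCS3 at 1.5 h (-0.18 to 0.020), STAT5B at 3 h (-0.32 to 0.055), EPOR at 48 h (-0.064 to 0.11) and SOCS2 from 6 to 24 h (-0.17 to 0.063). Without 0 h replicate 1, KIT was called higher at 0.5, 1.5 and 6 h.

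The labels do not say that a replicate number marks a shared batch. The correlation of replicate differences between time points ran from -0.24 to 0.46 over 28 pairs (median 0.22) and exceeded 0.1 in 20 but not in all, so the numbers were not taken as a pairing, and a shared replicate effect remains possible. Length minus effective length was larger in replicate 2 at the 7 treated times and smaller at 0 h. With the replicate block alone, the counts of called genes were 0, 4, 8, 9, 8, 8 and 8 for 0.5 to 72 h against 0 h, 8 for 24 h against 6 h, and 7 for 72 h against 24 h. KIT, with 8 reads in a 0 h library, is the gene most limited by depth.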
